A study of Penicillium oxalicum with 12 samples.

Results

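The oleate hydratase and lactate dehydrogenase locus of the filamentous fungus Penicillium oxalicum is described here through 3 of the 9931 genes in the deposited expression table. They are PDE_01479, which has no description, PDE_01480, described as oleate hydratase, and PDE_01482, described as L-lactate dehydrogenase. They were chosen by locus identifier for their large rises in the libraries of a histone H2B mutant, H2BK131A. The levels in H2BK131A are therefore what chose the genes. They are given as a description, with no test, and only comparisons without H2BK131A are tested for these 3 genes. The gene numbers are taken as an order along the genome, since no coordinates of this strain were used here.

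RNA was profiled from mycelia of 4 strains with 3 libraries each, 12 in all. They comprised wild type 114-2 (WT), a strain lacking laeA (DlaeA) and a pair of strains in which lysine 123 (H2BK123A) or lysine 131 (H2BK131A) of histone H2B was replaced by alanine. All 4 strains were grown in the same way: a pre-culture from conidia with 2% glucose for 22 h at 30 °C, then washed mycelia in Mandel's medium with 2% glucose for 24 h. The labels do not say whether each library had a culture of its own or whether a mutant strain is 1 clone. The p-values therefore reflect how far the libraries of a strain differ, and this difference may be technical.

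Oleate hydratases add water to the double bond of oleic acid and so make a hydroxy fatty acid. They are known mainly from bacteria, where they act on unsaturated fatty acids that can harm membranes. L-lactate dehydrogenase of the soluble type interconverts pyruvate and lactate with NADH, a step of fermentation, whereas the cytochrome type passes electrons from lactate to cytochrome c and serves growth on lactate. LaeA is known from Aspergillus as a regulator of secondary metabolism and development, and the H2B lysine at position 123 is known from Saccharomyces cerevisiae as the site of H2B ubiquitination.

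Values are FPKM per the deposited header, a unit in which fragments are divided by transcript length and library size. How the tags behind these values were divided by length is unknown, so levels and ratios between genes hold only on the deposited scale. Differences between strains are on the log2(FPKM + 1) scale, which understates the change of low genes, and are given ± SE from limma. A gene was called where its p, adjusted by the Benjamini-Hochberg method over all 9431 genes tested, was under 0.05. All 3 genes of the locus passed the filter, which asked for 3 or more libraries at an FPKM of 1 or above, and they would have passed without H2BK131A: PDE_01479 and PDE_01480 were at 1 or more in all 9 other libraries, and PDE_01482 in 6 of them.

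The libraries summed to an FPKM of 709484 to 764699. The WT libraries spread more than the others, where the SD of a gene had a median of 0.223 (log2), while in the mutants this median was 0.111 to 0.124. PDE_00584, which the table does not describe and which is recalled as laeA from published work, had an FPKM of 33.9 to 37.9 in WT but of 0 to 0.11 in DlaeA. The 4 genes fixed as markers of asexual structures, which a mycelium can bear beside vegetative hyphae, summed to 124.0 to 446.5 in WT, 789.8 to 819.2 in DlaeA, 100.6 to 209.7 in H2BK123A and 100.2 to 543.2 in H2BK131A. The sum joins genes that moved in opposite directions, so it does not measure the amount of such structures. In H2BK131A the spore wall gene DIT1 made up most of it, while BrlA (PDE_00087) and FlbD were lower than in WT. DIT1 also made up most of it in WT library 1, at 376. In DlaeA DIT1 had a mean of 0.847, where BrlA (PDE_00087) had 434.7. That DIT1 marks asexual structures was not checked. None of the 4 genes was at 0 throughout, and the second gene described as BrlA (PDE_00079) had means of 0.387 in WT and 2.14 in DlaeA.

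In WT the 3 genes lay below the median gene of the library, and in H2BK131A they were among its highest genes. The mean levels of each gene had the order WT, DlaeA, H2BK123A, H2BK131A. In each library PDE_01479 was the highest of the 3 and PDE_01482 the lowest.

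PDE_01479 was at FPKM 5.05, 18.4 and 6.98 in WT (libraries 1 to 3), at 14.8, 37.9 and 43.1 in DlaeA, at 158, 106 and 181 in H2BK123A and at 5296, 5292 and 4871 in H2BK131A. The H2BK123A and H2BK131A libraries lay apart from all others, whereas the lowest DlaeA library lay under the highest WT library. The gene ranked 7 to 9 among the 9931 genes in the H2BK131A libraries and 5646 to 7737 in WT.

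PDE_01480, the oleate hydratase, was at FPKM 1.64, 4.46 and 1.41 in WT, at 4.50, 17.8 and 17.8 in DlaeA, at 38.4, 23.2 and 41.9 in H2BK123A and at 1452, 1527 and 1443 in H2BK131A. No strain overlapped another, although the lowest DlaeA library lay just above the highest WT library. In H2BK131A its rank was 53 to 54, and in WT 7935 to 8614.

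PDE_01482, the L-lactate dehydrogenase, was at FPKM 0.29, 1.24 and 0.93 in WT, at 0.37, 2.65 and 2.81 in DlaeA, at 10.7, 7.92 and 13.7 in H2BK123A and at 538, 694 and 591 in H2BK131A. WT and DlaeA overlapped, and both histone mutants lay above them and apart from each other. Its rank went from 8740 to 9338 in WT to 177 to 213 in H2BK131A.

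**Figure D1:**
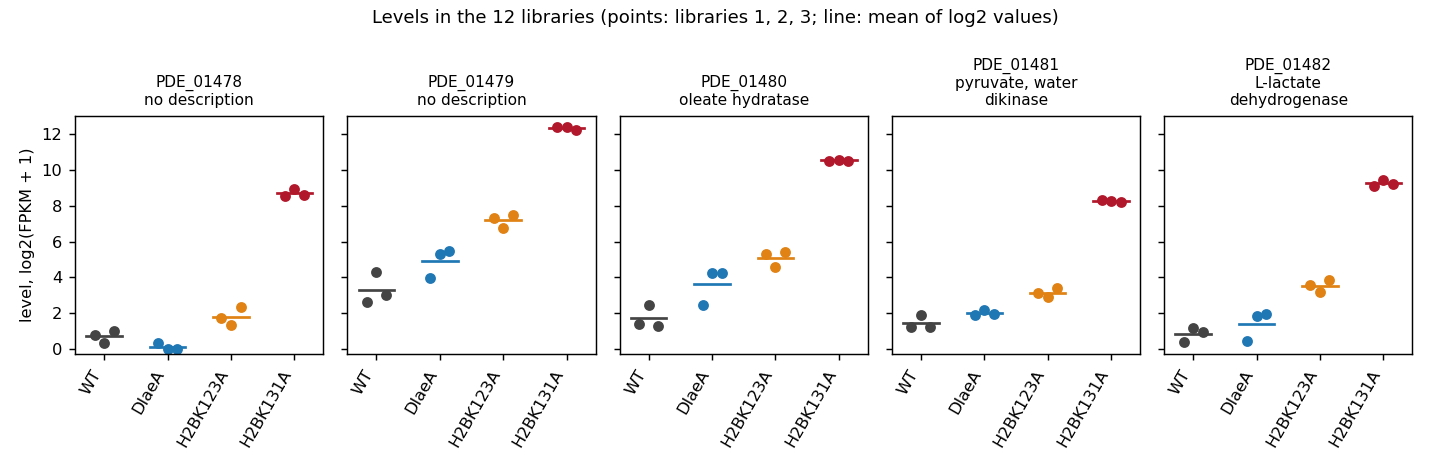
Level of the 3 genes of the locus and of the 2 genes numbered beside and between them, PDE_01478 and PDE_01481, as log2(FPKM + 1) on the vertical axis for each of the 12 libraries; points are libraries and lines are strain means of the log2 values. In each panel the 3 H2BK131A libraries lie above all others and the 3 H2BK123A libraries lie above WT and DlaeA.

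As a description, mean FPKM in H2BK131A was 5153 ± 244 (SD, n = 3) for PDE_01479 against 10.2 ± 7.23 in WT, a ratio of 507. For PDE_01480 the means were 1474 ± 46.1 and 2.50 ± 1.70, a ratio of 589, and for PDE_01482 they were 607.5 ± 79.3 and 0.82 ± 0.484, a ratio of 741. The log2 differences were 9.04, 8.82 and 8.41, which ranked 2, 4 and 6 among all 9431 genes, where 70.8% of the genes were called in this comparison and 40.7% had H2BK131A libraries all above WT. Against H2BK123A the ratios were 34.7, 42.7 and 56.5, and against DlaeA 161, 110 and 313; the H2BK131A libraries lay above those of H2BK123A for 37.3% of all genes and above DlaeA for 39.3%. Together the 3 genes held 0.956%, 0.982% and 0.924% of a library's FPKM in H2BK131A, 0.0191% to 0.032% in H2BK123A, 0.00272% to 0.0088% in DlaeA and 0.000967% to 0.00329% in WT.

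H2BK123A against DlaeA is the comparison whose differences share no library with the contrast behind the choice of the genes. Its SE, intervals and p-values still use a spread estimated from all 12 libraries, those of WT and H2BK131A included. All 3 genes were higher in H2BK123A, where 61.2% of all tested genes were called, 28.1% as higher. PDE_01479 rose by a log2 difference of 2.28 ± 0.43 (95% interval 1.33 to 3.23, limma adjusted p = 0.000744), from a mean FPKM of 31.9 ± 15.1 (SD, n = 3) to 148.5 ± 38.3. The oleate hydratase PDE_01480 rose by 1.47 ± 0.44 (0.49 to 2.44, limma adjusted p = 0.0133), from 13.4 ± 7.67 to 34.5 ± 9.96. The lactate dehydrogenase PDE_01482 rose by 2.11 ± 0.35 (1.33 to 2.88, limma adjusted p = 0.000289), from 1.94 ± 1.36 to 10.7 ± 2.87. For none of the 3 did the strains overlap, as for 33.5% of all genes on the higher side. DlaeA library 1 was the lowest of its strain for all 3 genes. Without it the difference of PDE_01480 was 0.87 (limma adjusted p = 0.0418), and those of PDE_01479 and PDE_01482 were 1.82 and 1.63.

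Against WT, whose libraries are also the base of the contrast that chose the genes, all 3 genes were higher in H2BK123A, where 46.6% of all tested genes were called, 33.5% as higher. The differences were 3.90 ± 0.43 for PDE_01479 (95% interval 2.95 to 4.85, limma adjusted p = 4.33e-05), 3.40 ± 0.44 for PDE_01480 (2.43 to 4.37, limma adjusted p = 0.000131) and 2.70 ± 0.35 for PDE_01482 (1.92 to 3.47, limma adjusted p = 0.000133). The ratios of mean FPKM were 14.6, 13.8 and 13.1. No H2BK123A library overlapped WT for any of them, as for 37.6% of all genes on the higher side. Leaving out any 1 of the 12 libraries left these differences between 3.55 and 4.39, 3.18 and 3.77, and 2.47 and 2.88.

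DlaeA against WT also shares the WT libraries with the contrast that chose the genes. It gave 2 calls among the 3 genes, where 69.9% of all tested genes were called, 46.3% as higher. PDE_01479 was higher by 1.62 ± 0.43 (95% interval 0.66 to 2.57, limma adjusted p = 0.00579), although the libraries overlapped. PDE_01480 was higher by 1.93 ± 0.44 (0.96 to 2.91, limma adjusted p = 0.00216), and its libraries did not overlap, as for 46.2% of all genes on the higher side. PDE_01482 was not called, at 0.59 ± 0.35 (-0.18 to 1.37, limma adjusted p = 0.155). That result rests on DlaeA library 1: without it the difference was 1.07 (limma adjusted p = 0.0033). Whether the response of PDE_01482 differs from that of the other 2 genes was not tested. The median over all genes in the comparisons with WT was 0.27 for DlaeA and 0.18 for H2BK123A, and it was 0.02 and -0.02 after median ratio scaling. Relative to the deposited median the 3 genes differed by 1.35, 1.66 and 0.32 in DlaeA and by 3.72, 3.22 and 2.52 in H2BK123A.

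**Figure D2:**
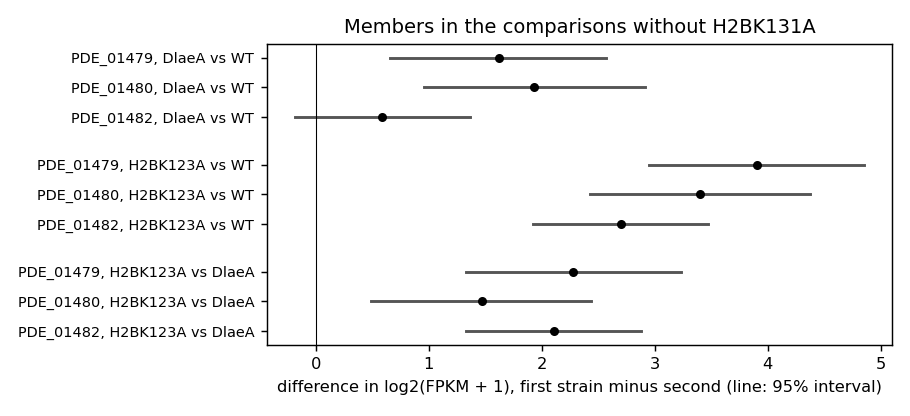
Difference in log2(FPKM + 1), first strain minus second, for the 3 genes in the comparisons without H2BK131A; points are limma estimates and lines are 95% intervals. The interval of PDE_01482 in DlaeA against WT, from -0.18 to 1.37, is the only one of the 9 that includes 0.

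In 3 of the 4 strains the 3 genes shared an extreme library. WT library 2 was the highest of WT, DlaeA library 1 the lowest of DlaeA and H2BK123A library 2 the lowest of H2BK123A for each of the 3 genes. In H2BK131A they did not share one: library 1 was the highest for PDE_01479 and the lowest for PDE_01482, and PDE_01480 was highest in library 2. The shared order of the other strains is common in the table: WT library 2 was highest for 59.2% of all tested genes, DlaeA library 1 lowest for 34.0%, H2BK123A library 2 lowest for 40.1%, and 9.89% of genes had all of these features. Over the 12 libraries the Pearson correlation of log2(FPKM + 1) was 0.996 between PDE_01479 and PDE_01480, 0.989 between PDE_01479 and PDE_01482 and 0.987 between PDE_01480 and PDE_01482, values that the difference between strains largely fixes. These descriptions share the libraries and their scaling.

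The proportion between the genes was not constant. PDE_01479 stood at 3.37 to 3.65 times the FPKM of PDE_01480 in H2BK131A, 4.13 to 4.58 times in H2BK123A, 2.13 to 3.28 times in DlaeA and 3.08 to 4.95 times in WT. PDE_01480 stood at 2.20 to 2.70 times the FPKM of PDE_01482 in H2BK131A, 2.93 to 3.59 times in H2BK123A, 6.32 to 12.2 times in DlaeA and 1.52 to 5.66 times in WT. The DlaeA libraries thus had the highest ratio of oleate hydratase to lactate dehydrogenase, above every library of the other strains. Small values set part of these ratios: PDE_01482 was at 0.29 to 1.24 in WT and at 0.37 in DlaeA library 1, which gave the ratio of 12.2, while the other DlaeA libraries stood at 6.72 and 6.32.

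The genes numbered around the locus were examined from PDE_01467 to PDE_01501. Of the 35 numbers 3 have no row and are not analysed here, and of the 29 genes beside the members 25 were tested. In H2BK131A against WT 16 of these 25 rose, 4 fell and 5 were not called, with a median difference of 0.66 against 0.13 over all genes, of which 40.6% rose and 30.2% fell. The 16 include PDE_01477, which entered the test only through its H2BK131A libraries. In H2BK123A against WT 6 rose and 5 fell, with a median of 0.20 (all genes 0.18, with 33.5% higher and 13.1% lower). In DlaeA against WT 12 rose and 5 fell, with a median of 0.21 (all genes 0.27, with 46.3% higher and 23.6% lower), and after median ratio scaling the counts were 7 and 10, where 34.1% of all genes were higher and 33.4% lower. In H2BK123A against DlaeA 8 rose and 6 fell, with a median of 0.05 (all genes -0.07, with 28.1% higher and 33.1% lower).

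The large changes in H2BK131A formed a block, in which the 3 members were chosen for such changes. PDE_01481, described as pyruvate, water dikinase, which in bacteria makes phosphoenolpyruvate from pyruvate, lies between the oleate hydratase and the lactate dehydrogenase in the numbering. Its FPKM was 1.33, 2.67 and 1.30 in WT, 2.72, 3.52 and 2.80 in DlaeA, 7.63, 6.35 and 9.55 in H2BK123A and 315, 310 and 300.0 in H2BK131A. All WT and DlaeA libraries lay below H2BK123A, and H2BK131A lay above all. The difference from WT was 6.84 ± 0.18 in H2BK131A (limma adjusted p = 3.62e-10) and 1.70 ± 0.18 in H2BK123A (limma adjusted p = 3.69e-05). In DlaeA it was 0.57 ± 0.18 (limma adjusted p = 0.0164), a call lost after median ratio scaling (0.38, limma adjusted p = 0.0636), after quantile scaling, and without WT library 1 (0.46), WT library 3 (0.45) or DlaeA library 2 (0.48).

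PDE_01478, which has no description and is numbered just below the locus, was at FPKM 0.74, 0.25 and 0.98 in WT, at 0.26, 0 and 0 in DlaeA, at 2.26, 1.49 and 4.07 in H2BK123A and at 370, 489 and 391 in H2BK131A. The strains did not overlap apart from DlaeA and WT, whose values met at 0.25 and 0.26. The gene rose by 7.99 ± 0.25 in H2BK131A (limma adjusted p = 5.37e-10) and by 1.09 ± 0.25 in H2BK123A (limma adjusted p = 0.00418) against WT. In DlaeA, where 2 libraries are listed at 0, the difference was -0.59 (limma adjusted p = 0.0504), while that of the 2 members called there was above 0. Without WT library 2 it was -0.78 (limma adjusted p = 0.0162), a call, as it was after median ratio or quantile scaling and without DlaeA library 1, H2BK123A library 2 or H2BK123A library 3.

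The levels in H2BK131A were lower on both sides of the block. PDE_01477 was listed at 0 throughout WT, and at 3.91, 5.90 and 5.20 in H2BK131A. No fold or test is given for it, since it passed the filter only through H2BK131A. With WT at 0, it cannot be told whether its rise was smaller than those in the block. PDE_01483 on the other side went from a mean FPKM of 5.26 to 12.4 (1.11 ± 0.14, limma adjusted p = 1.61e-05). PDE_01483 was not called in H2BK123A against WT (0.33, limma adjusted p = 0.0668), although it was without WT library 2 (0.45, limma adjusted p = 0.0123). The 6 genes PDE_01477 to PDE_01482 held 1.05%, 1.09% and 1.02% of a library's FPKM in H2BK131A.

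Farther off, the largest rises in H2BK131A were those of PDE_01494, described as protein-L-isoaspartate(D-aspartate) O-methyltransferase, which repairs damaged aspartate residues, and of the undescribed PDE_01471. PDE_01494 went from a mean FPKM of 40.0 in WT to 408 in H2BK131A (3.35 ± 0.18, limma adjusted p = 1.88e-08) and to 118 in H2BK123A (1.56 ± 0.18, limma adjusted p = 5.64e-05). PDE_01471 went from 0.83 to 17.0 in H2BK131A (3.33 ± 0.19, limma adjusted p = 3.07e-08) and was not called in H2BK123A (0.33, limma adjusted p = 0.179). PDE_01493 beside PDE_01494 rose by 1.82 (limma adjusted p = 6.65e-07). PDE_01488, the autophagy protease ATG4, fell by 1.29 (limma adjusted p = 2.35e-07), and PDE_01487 fell by 1.22 (limma adjusted p = 9.04e-06). H2BK123A moved the same way against WT: PDE_01493 rose by 1.33, and PDE_01488 (-0.94) and PDE_01487 (-1.12) fell. In DlaeA PDE_01493, PDE_01488 and PDE_01487 rose by 0.63, 0.82 and 0.69.

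PDE_01489, the only gene described as histone H2B, also lies in this window and is numbered 7 above the lactate dehydrogenase gene. Its mean FPKM was 1107 in WT, 736.2 in DlaeA, 953 in H2BK123A and 1092 in H2BK131A. It was not called in H2BK131A (-0.02 ± 0.13, limma adjusted p = 0.906) or H2BK123A (-0.22 ± 0.13, limma adjusted p = 0.187) against WT, although after median ratio scaling H2BK123A was called lower (-0.44, limma adjusted p = 0.0117). In DlaeA it fell (-0.59 ± 0.13, limma adjusted p = 0.0015), a call lost after quantile scaling (-0.30, limma adjusted p = 0.0712). A histone H2A gene, PDE_01490, is numbered next to it and was not called in H2BK131A (-0.08, limma adjusted p = 0.596). That this gene carries the mutations was not checked, and whether its nearness in the numbering bears on the levels of the locus was not tested.

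**Figure D3:**
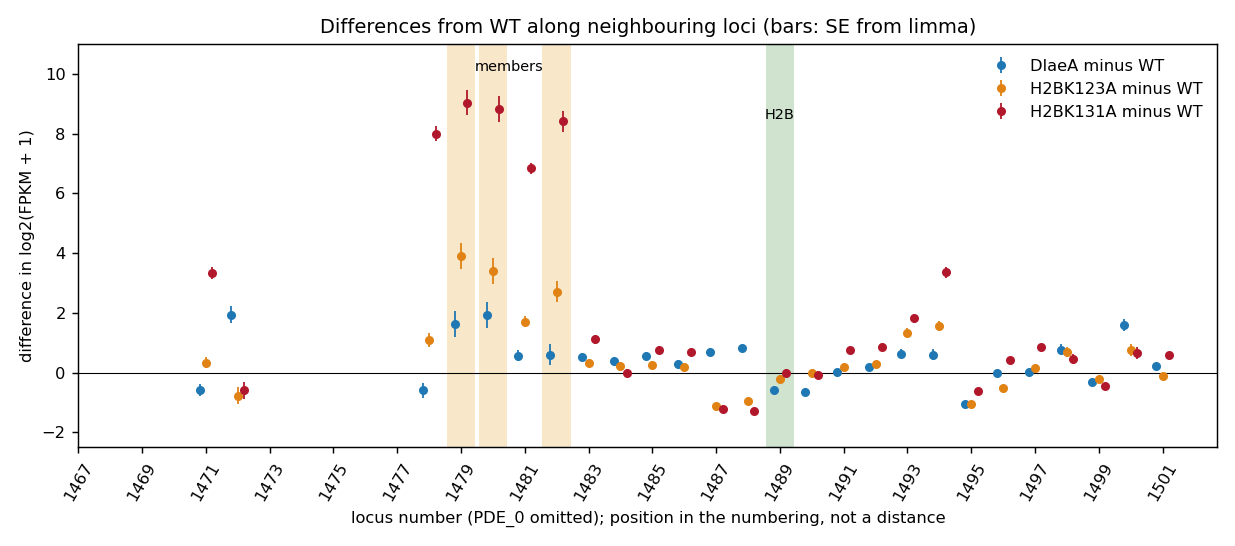
Difference from WT in log2(FPKM + 1) on the vertical axis for the tested genes from PDE_01467 to PDE_01501 in the order of their numbers, which is no distance, without PDE_01467 and PDE_01477, which passed the filter only with the H2BK131A libraries; points are limma estimates for DlaeA, H2BK123A and H2BK131A, bars are SE, and shading marks the 3 genes of the locus and H2B. The values for H2BK131A stand at 6.84 to 9.04 from PDE_01478 to PDE_01482 and drop to 1.11 at PDE_01483.

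A pair of other genes are described as oleate hydratase. Reads of such related genes can be shared or split by the authors' counting, so the smaller values are uncertain. PDE_06157 was at FPKM 0.95, 1.07 and 0.72 in WT, at 0.76, 1.72 and 1.6 in DlaeA, at 3.0, 2.64 and 3.22 in H2BK123A and at 26.2, 24.5 and 23.0 in H2BK131A. WT and DlaeA overlapped, and the histone mutants lay above them. It rose by 3.74 ± 0.16 in H2BK131A (limma adjusted p = 4.05e-09) and by 1.05 ± 0.16 in H2BK123A (limma adjusted p = 0.000396) against WT, and by 0.77 ± 0.16 in H2BK123A against DlaeA (limma adjusted p = 0.00157). In DlaeA the difference was 0.28 (limma adjusted p = 0.144), and without DlaeA library 1 it was 0.48 (limma adjusted p = 0.0071). PDE_01139 was at a mean FPKM of 13.4 ± 2.37 (SD, n = 3) in WT and 17.1 ± 3.43 in H2BK131A and was not called (0.33 ± 0.18, limma adjusted p = 0.128), although it was without H2BK131A library 3 (0.49, limma adjusted p = 0.0326). It was called higher in DlaeA (0.51, limma adjusted p = 0.0256) and in H2BK123A (0.52, limma adjusted p = 0.0349) against WT. After median ratio scaling these differences were 0.24 and 0.31 (limma adjusted p = 0.228 and 0.153), and without WT library 3 they were 0.38 and 0.39, none of them a call. Leaving out DlaeA library 1 or 3, or H2BK123A library 1 or 3, also ended the call of that strain. In WT its deposited FPKM was the highest of the 3 genes of this description, and in H2BK131A the lowest.

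The other gene described as L-lactate dehydrogenase without the word cytochrome, PDE_01078, had mean levels of 0.09 to 0.417 in the 4 strains and was not tested. The gene described as D-lactate dehydrogenase, PDE_00035, went from 13.9 in WT to 30.7 in H2BK131A (1.10, limma adjusted p = 5.56e-06) and stood at 30.2 in DlaeA and 29.2 in H2BK123A. Among the genes described as the cytochrome type of L-lactate dehydrogenase, which use lactate, 4 fell in H2BK131A against WT: PDE_09762 by 1.33, from a mean of 414.9 to 163.9, PDE_02406 by 2.26, from 36.7 to 6.85, PDE_01570 by 0.90 and PDE_05054 by 0.49. Of all genes 30.2% fell in this comparison and 40.6% rose. PDE_00318 rose by 0.37 (limma adjusted p = 0.0114), and PDE_03615 (0.13) and PDE_01324 (-0.04) were not called. Of the cytochrome type of D-lactate dehydrogenase, PDE_05832 (1.12) and PDE_05825 (0.89) rose, and PDE_01819 (0.47, limma adjusted p = 0.0515) and PDE_05821 (0.06) were not called. Some of these changes were shared by the other mutants. PDE_09762 also fell against WT in DlaeA (-1.67) and H2BK123A (-0.83). PDE_05832 and PDE_05825 were also higher than WT in DlaeA (0.70 and 1.23) and H2BK123A (1.55 and 0.59). In these 2 strains PDE_02406 was not called, and PDE_01570 (1.16 and 0.64) and PDE_05054 (0.94 and 0.63) rose.

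**Figure D4:**
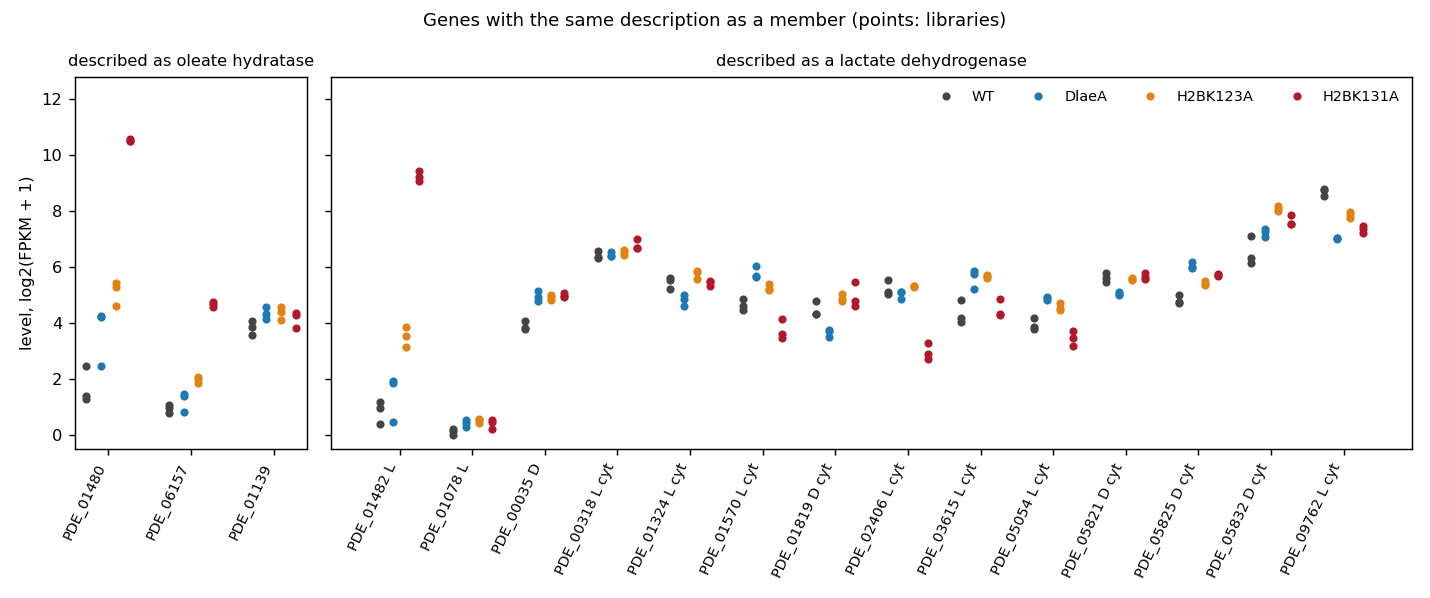
Level as log2(FPKM + 1) in each library of the genes described as oleate hydratase (left) or as a lactate dehydrogenase (right, L or D by the acid, cyt for the cytochrome type); points are libraries and colours are strains. In H2BK131A PDE_01480 and PDE_01482 are the highest of their panel, whereas in WT their means are 2.50 and 0.82.

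A search for enzymes of pyruvate and lactate also asked for alcohol dehydrogenases, malate dehydrogenases and glyoxalases. It found 62 genes beside PDE_01482, of which 61 were tested. In H2BK131A against WT 30 rose, 16 fell and 15 were not called, with a median of 0.47 against 0.13 over all genes, of which 40.6% rose and 30.2% fell. In H2BK123A against DlaeA 25 rose and 13 fell, with a median of 0.18 (all genes -0.07, with 28.1% higher and 33.1% lower). Pyruvate decarboxylase PDE_04873, which turns pyruvate into acetaldehyde on the way to ethanol, rose from a mean FPKM of 38.8 in WT to 1859 in H2BK131A (5.59 ± 0.23, limma adjusted p = 3.07e-09), and from 17.8 in DlaeA to 161 in H2BK123A (3.08 ± 0.23, limma adjusted p = 3.65e-07). The NADP+ alcohol dehydrogenase PDE_01202 rose by 4.2 in H2BK131A against WT, from 2.28 to 57.5. The propanol-preferring alcohol dehydrogenase PDE_07104 was at a mean of 0.467 in DlaeA and 45.9 in H2BK123A (5.0 ± 0.10, limma adjusted p = 4.71e-12), with 119 in WT. The search also took in isopropylmalate dehydrogenases, which make leucine.

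Of 24 genes of unsaturated fatty acids and fatty acid synthesis beside PDE_01480, 15 rose, 4 fell and 5 were not called in H2BK131A against WT, with a median of 1.08 (all genes 0.13, with 40.6% higher and 30.2% lower). In H2BK123A against DlaeA 12 rose and 6 fell, with a median of 0.50 (all genes -0.07, with 28.1% higher and 33.1% lower). The 15 include PDE_02135, which passed the filter only through H2BK131A. Several of them are desaturases of sterols, phytoene or sphingolipids, which act on other lipids. Linoleate 10R-lipoxygenase PDE_04936, which oxidises linoleic acid, fell by 4.33 in H2BK131A against WT, from a mean of 99.5 to 3.44 (limma adjusted p = 3.57e-07). It also fell by 4.34 in H2BK123A against DlaeA, from 1040 to 50.9 (limma adjusted p = 5.02e-07). The Delta-12 desaturase PDE_06752, of the kind that makes linoleic from oleic acid, fell by 4.21 in H2BK123A against DlaeA, from a mean of 39.1 to 1.15, with 0.737 in WT.

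A search for enzymes of fatty acid activation and beta-oxidation, which break fatty acids down, also asked for isocitrate lyase and malate synthase. It took in 2-isopropylmalate synthase PDE_00404, which makes leucine and rose by 2.50 in H2BK131A and 1.46 in DlaeA against WT. Of the 39 genes found, 15 rose and 11 fell in H2BK131A against WT. Their median was 0.18 (all genes 0.13, with 40.6% higher and 30.2% lower). In DlaeA against WT 26 rose and 2 fell, with a median of 0.80 (all genes 0.27, with 46.3% higher and 23.6% lower). In H2BK123A against WT 25 rose and 1 fell, with a median of 0.77 (all genes 0.18, with 33.5% higher and 13.1% lower). Methylisocitrate lyase PDE_06062, an enzyme of propionate use that the search for isocitrate lyase caught, went from a mean of 61.0 in WT to 3140 in H2BK131A (6.03 ± 0.56, limma adjusted p = 1.75e-06). The long-chain acyl-CoA synthetase PDE_00022 had a mean of 0.02 in WT and 14.9 in H2BK131A. It passed the filter only through H2BK131A, so no fold or test is given, and it is among the 15 that rose. In H2BK123A against DlaeA 10 rose and 14 fell, with a median of -0.27 (all genes -0.07, with 28.1% higher and 33.1% lower). There the 3-hydroxyacyl-CoA dehydrogenase PDE_06959 rose by 2.60 and the long-chain acyl-CoA synthetase PDE_03757 fell by 2.28, from 849.6 to 169. In WT these genes had means of 9.65 and 107.

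Of 28 tested genes described as lipases, 18 of the 29 found being phospholipases, 7 rose and 11 fell in H2BK131A against WT, with a median of -0.17 (all genes 0.13, with 40.6% higher and 30.2% lower). Triacylglycerol lipase PDE_09947, which frees fatty acids from fat, fell from a mean FPKM of 2106 to 4.82 (-8.18 ± 0.49, limma adjusted p = 4.13e-08), and phospholipase C PDE_00500 fell by 2.07. In H2BK123A against DlaeA 9 rose and 10 fell, where 28.1% of all genes rose and 33.1% fell. There lipase ATG15 PDE_07103 rose by 1.81, and phospholipase C PDE_04681 went from 0.033 to 2.25. Their WT means, 52.4 and 3.45, lay above those of H2BK123A.

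Genes were ranked by the Pearson correlation of log2(FPKM + 1) with each member over the 12 libraries. PDE_01479 ranked 1 for PDE_01480, and PDE_01480 ranked 2 for PDE_01479. PDE_01482 ranked 13 for PDE_01479 and 9 for PDE_01480. For PDE_01482 itself, PDE_01479 ranked 18 and PDE_01480 ranked 30. The 5 highest genes from outside the locus are named here. The order rests largely on the H2BK131A levels that chose the members, and it moves with the measure: of each 5, only 1, 0 and 0 were also among the 5 highest by the correlation over the 4 strain means. For PDE_01479 they were PDE_01166 (0.996), PDE_06443 (0.993), the cytochrome P450 gene PDE_01689 (0.992), PDE_02863 (0.992) and squalene monooxygenase PDE_09649 (0.991), a step of sterol synthesis. For PDE_01480 they were PDE_06443 (0.995), PDE_01166 (0.995), PDE_02882 (0.993), PDE_07430 (0.992) and PDE_09080 (0.989). For PDE_01482 they were trehalose 6-phosphate synthase PDE_01411 (0.998), the oleate hydratase PDE_06157 (0.996), PDE_07282 (0.994), PDE_01837 (0.994) and PDE_06916 (0.994). Such values were not rare: 234, 248 and 322 genes had a correlation above 0.95 with PDE_01479, PDE_01480 and PDE_01482, and 9, 5 and 12 had one above 0.99, members counted. PDE_06443, which has no description and is on 2 of the lists, had mean levels of 6.28 in WT, 21.4 in DlaeA, 69.6 in H2BK123A and 2010.0 in H2BK131A.

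Genes fixed as markers of asexual structures moved between the strains too. The regulator BrlA PDE_00087 was at FPKM 5.67, 19.7 and 28.9 in WT, at 412, 449 and 444 in DlaeA, at 8.95, 18.2 and 13.6 in H2BK123A and at 1.90, 2.06 and 2.06 in H2BK131A. It was highest in DlaeA and lowest in H2BK131A, without overlap with WT in either. The regulator FlbD PDE_03008 fell from a mean of 100.1 in WT to 5.29 in H2BK131A (-3.96, limma adjusted p = 3.73e-08) and was at 370.9 in DlaeA. The spore wall gene DIT1 PDE_01188 was at 376, 5.93 and 164 in WT and at 92.7, 537 and 420 in H2BK131A, which overlapped, and at 0.61 to 1.02 in DlaeA. In such bulk samples fewer cells of a type and less RNA per cell cannot be told apart, and the part of developmental stage in the levels of the locus was not tested.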

How the data were processed

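Libraries of mycelial RNA from 4 strains, 3 each, were made by cutting oligo(dT)-primed cDNA into short tags, per the labels' protocols. The authors deposited 1 FPKM value per gene and library, per the file headers. The sources used here give no aligner, counting tool or genome build, and a per-kilobase unit is unusual for tags. The table holds no counts, so the depth is unknown and no counting interval is given.

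Groups came from the sample titles. The values were tested as log2(FPKM + 1) with limma 3.58.1 in R 4.3.3 (all 12 libraries, strain as the only term, trended empirical Bayes, two-sided, 8 residual degrees of freedom), for the 9431 genes that reached an FPKM of 1 in 3 or more libraries. Names are the descriptions in the deposited table. The reference gene table at hand holds 0 PDE identifiers, so no sequences or coordinates are printed.

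The members, lists, markers and the window of 12 loci on each side were chosen with earlier results of these data known. Named were the 3 genes, H2B, the 8 window genes with the largest changes in H2BK131A against WT, of each list the 2 largest called changes in H2BK131A against WT and in H2BK123A against DlaeA, genes sharing the word oleate or lactate dehydrogenase with a member, and the 5 most correlated genes. PDE_00404, PDE_01483, PDE_01490, BrlA, FlbD, DIT1 and PDE_00584 are named beside that rule. Alternatives were other pseudocounts, filters and scalings, fits of 2 strains, a replicate block, other windows, and leaving out each library.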

Additional observations from a re-analysis of the deposited data

How the results depend on the processing

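Of the 9 tested results on the 3 genes, 8 were called. Of all genes 69.9% were called in DlaeA against WT, 46.6% in H2BK123A against WT and 61.2% in H2BK123A against DlaeA. The 9 results share genes and libraries and are not independent. Under 21 alternatives 188 of 189 values kept their direction and call. The exception was PDE_01482 in DlaeA against WT without DlaeA replicate 1, where it was called higher; over the libraries left out in turn this difference ranged from 0.33 to 1.07. The untested differences of H2BK131A moved with the pseudocount, since the lower levels are close to 0. Against WT, PDE_01480 was at 9.33 with a pseudocount of 0.1 and 7.65 with 5, and PDE_01482 at 9.54 and 6.71, and at 7.93 after quantile scaling. PDE_01482 was at 8.60 and 6.48 against DlaeA with these pseudocounts, and at 5.29 with 5 against H2BK123A; by its construction a larger pseudocount shrinks the differences of low genes. The counts of called genes stayed within 1.5 times the reported ones in all 6 comparisons and 126 values.

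Scaling moved the balance of calls against WT: genes called higher made up 66.3% of the calls in DlaeA, 71.8% in H2BK123A and 57.4% in H2BK131A with the deposited values, and 50.5%, 49.5% and 48.4% after median ratio scaling. In the window around the locus H2BK123A against WT gave 8 lower genes of 25 after median ratio scaling, where 23.7% of all genes were lower, and 10 higher ones without WT replicate 2, where 41.2% of all genes were higher. Windows of 6 and 25 loci on each side gave 10 of 16 and 28 of 50 tested genes higher in H2BK131A against WT, with 3 and 10 lower, where 40.6% of all genes were higher and 30.2% lower. No pairing of the libraries by replicate number was seen. Correlations of deviations ran from -0.224 to 0.211, and in 0 of 6 strain pairs were all above 0.1. Such correlations cannot show that libraries of the same number were handled apart. With a replicate block the calls on the 3 genes did not change; PDE_01482 in DlaeA against WT had a limma adjusted p of 0.0979 and PDE_01480 in H2BK123A against DlaeA one of 0.0158. The number of libraries, 3 a strain, limits the precision.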

Other observations

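The following was chosen after the values were seen. With a log2 difference of at least 4 in H2BK131A against WT, 111 genes passed, and 3 stretches held at least 3 of them at successive gene numbers. The locus with PDE_01478 and PDE_01481 was the longest, with 5 genes at 6.84 to 9.04. Of these 5 genes 3 are the members, which were chosen for their rises in H2BK131A, so its length is no test. The stretch PDE_00369 to PDE_00371 holds nitrate reductase, nitrite reductase and a nitrate/nitrite transporter, which take up nitrate and reduce it to ammonium, with differences of 6.83 to 8.97. The stretch PDE_01411 to PDE_01413 holds trehalose 6-phosphate synthase, a gene without description and choline dehydrogenase, with differences of 5.06 to 7.10. At a threshold of 3 there were 237 genes and 6 stretches, and at 5 there were 63 genes and 3 stretches. The longest had 5 genes each time.

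The oleate hydratase gene PDE_06157 rose without its direct neighbours in the numbering. In H2BK131A against WT the beta-fructofuranosidase gene PDE_06156 fell by 0.68 (limma adjusted p = 0.00112), and PDE_06158, described as F-box and leucine-rich repeat protein 10/11, fell by 0.43 (limma adjusted p = 0.00494). Of the genes from PDE_06152 to PDE_06162, PDE_06155 also rose (0.86, limma adjusted p = 0.0018), from a mean FPKM of 11.01 to 20.9.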
